A study of Mus musculus with 8 samples.

Results

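The comparison described here is that of undifferentiated mouse embryonic stem cells of 2 genotypes, before any differentiation had been started. Its members are the 4 arrays labelled day 0, chosen by their labels alone, of 8 arrays in the series. They are 2 cultures labelled wild type and 2 labelled heterozygous for Nkx2-5 R141C, a missense change in a homeobox factor, and every group of the series had 2 biological replicates. The other 4 arrays, of the same genotypes at day 6 of differentiation, entered the estimate of the spread, the choice of 1 probe per gene and the filter on dim probes, and their differences are given where they bear on a result of day 0. All groups shared 1 platform, a single-colour Agilent array, and 1 dye. The labels name no second or corrected line, so the mutation and any other difference between the lines cannot be told apart. Strain, sex, passage, day 0 medium and the use of feeder cells are not given in the sources used here. Nothing in the labels says how separate the replicate cultures were, so p-values measure the spread between these samples.

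Embryonic stem cells renew themselves as long as a network around Pou5f1, Sox2 and Nanog holds. Mouse lines in serum and leukaemia inhibitory factor (LIF) hold a mixture of cells in a naive state, marked by factors such as Klf4, Tbx3 and Esrrb, and cells closer to the primed epiblast of the implanted embryo. Wnt and Nodal signals then induce the primitive streak, where T (brachyury), Eomes and Fgf8 mark cells on the way to mesoderm and endoderm, and the caudal factors and Hox genes follow from head to tail. Nkx2-5 acts later, in cardiac progenitors, where it is needed for heart morphogenesis. The comparison at day 0 therefore asks whether the lines were alike before the gene's known place of action.

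The labelled cell type showed its markers. Dppa5a, an RNA-binding protein of the pluripotent state, had log2 signals of 7.52 and 7.72 in wild type and 7.60 and 7.54 in R141C, on a scale where the 75th percentile of each array is 0. All 25 tested genes of the naive list and all 24 of the core and general pluripotency list were well above background on all 4 arrays. Between 64.6% and 70.5% of probes were above background per array, and 24021 of the 25892 tested genes were above it on all 4. Correlations across genes, which are not independent replicates, were highest between R141C replicate 1 and wild-type replicate 1 (0.991) and lowest between R141C replicate 2 and wild-type replicate 2 (0.977). They were 0.983 between the wild-type replicates and 0.986 between those of R141C, so the closest pair of arrays held both genotypes. All arrays lay on 1 slide and came from 1 scan, with each group in its own neighbouring positions, so position and genotype cannot be told apart.

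Nkx2-5 was measured first as a check of the labels (probe A_51_P173285, mm9 chromosome 17, 26975621 to 26975680). It was above background on all 4 arrays, with log2 signals of -1.27 and -2.02 in wild type and 1.84 and -0.77 in R141C. Both R141C cultures were higher than both wild-type ones, and R141C replicate 1 stood 2.60 above its own replicate. The difference of 2.18 (SE 0.76) did not pass (limma, adjusted p = 0.9995). It was 0.88 without R141C replicate 1 and 3.48 without R141C replicate 2. The probe reads the transcript and not the base change, so the genotype itself remains that of the labels.

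Across all genes no single difference between the 2 lines was called. No gene of 25892 passed an adjusted p of 0.05 (0%, limma, smallest adjusted p = 0.0593). An unadjusted p under 0.05 was reached by 594 genes with R141C higher (2.29%) and by 571 with R141C lower (2.21%). The groups did not overlap, with R141C higher, for 3764 genes (14.5%) and, with R141C lower, for 3692 (14.3%). These 4 percentages are the background against which each gene list below is to be read. The lists were chosen with earlier results of these data known. Members of a list were read on the same 4 arrays and are not independent. A share above background is therefore a description and not a test of the genotype. The median size of the genotype difference was 0.20 on the log2 scale, against 0.30 between the wild-type replicates and 0.32 between the R141C replicates. A mean of 2 arrays varies less than a single array, so these sizes, and the counts that follow, are not on equal terms. Genotypes differed by more than 1 for 1159 genes, and 811 of them did not overlap, while 2687 genes did so between the wild-type replicates and 2455 between those of R141C. With 2 against 2 samples an exact permutation test of a single gene cannot go below p = 0.333, so the calls rest on the variance shared across genes.

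**Figure D1:**
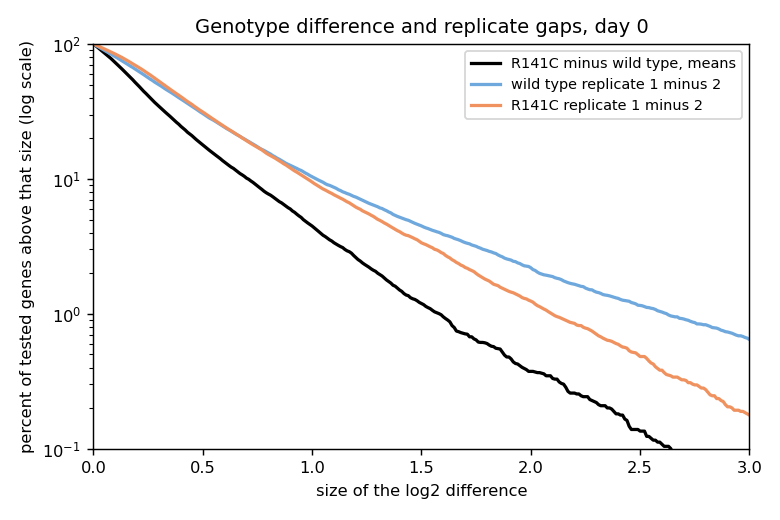
Percent of the 25892 tested genes (log axis) whose log2 difference exceeded the size on the x axis, for the difference between genotype means and for the gaps between the replicates of each genotype at day 0. The genotype curve lies below both replicate curves: 1159 genes exceeded 1 between genotypes, 2687 between the wild-type replicates and 2455 between those of R141C.

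The smallest p-values among lower genes were those of Cldn24 and Kif5b, each with an adjusted p of 0.0593. Kif5b was above background on all 4 arrays, and Cldn24 was so in wild type alone. Kif5b, a heavy chain of the kinesin-1 motor that carries cargo along microtubules, had log2 signals of 0.28 and 0.57 in wild type and of -2.28 and -2.39 in R141C (probe A_66_P116311, mm9 chromosome 18, 6202515 to 6202574). The groups lay far apart and each was tight, with a difference of -2.76 (SE 0.21), 6.79-fold. Kif5b was the 1 gene called under 2 alternatives, normexp background correction (-2.49, adjusted p = 0.0351) and a filter on all 8 arrays (adjusted p = 0.0421). With only the 4 arrays of day 0 no gene was called, and the smallest adjusted p of all genes was 0.728 (limma). A second probe, A_55_P2032649 (6241599 to 6241658), was not above background on any of the 4 arrays, with a difference of -0.06. With the mean of both probes the difference was -1.41 (adjusted p = 0.974). At day 6 Kif5b was lower again, by -1.89 (adjusted p = 0.0641), and the difference between the days did not pass (adjusted p = 0.827).

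The partners of Kif5b did not move as a group. The list of kinesin-1 chains and adaptors had a median difference of 0.00 over 11 genes, 6 higher and 5 lower, with Kif5b itself counted among the lower ones. Trak1, an adaptor that links the motor to mitochondria, had 0.24 and 2.19 in wild type and 0.14 and 0.07 in R141C, lower without overlap by -1.11 (SE 0.58) and high on wild-type replicate 2. Kif5a, a sister heavy chain, had 0.86 and 1.50 in wild type and 1.24 and 0.96 in R141C. Klc2, a light chain, had 2.80 and 3.10 against 3.48 and 3.19, a difference of 0.39 (SE 0.23). Apart from Kif5b itself, no member had an unadjusted p under 0.05.

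Cldn24, a claudin of tight junctions, gave a signal above background in both wild-type cultures (-4.17 and -3.35) and in neither R141C culture (-8.39 and -8.14, mm9 chromosome 8, 48908100 to 48908159). On the processed signal it was at least 4.73-fold lower in R141C, a bound taken against the lowest signal among bright probes. With normexp the difference at day 0 was -1.32, where the processed signal gave -4.50. At day 6 it was above background on no array, so day 6 gives no difference for it. The same pattern, bright in wild type and dim in R141C, held for Necab1, a calcium-binding protein (at least 1.30-fold), for S100a7l2 of the S100 family (at least 1.31-fold), and for Tex13b, Scgb1c1 and Bcl2l10 (at least 2.12-fold, 1.53-fold and 2.33-fold), none of them passing (adjusted p of 0.118 to 0.539). Cldn24 and these 5 genes were above background in neither group at day 6. They therefore entered the test only through the group in which they were high, as 772 tested genes did through wild type at day 0 and 231 through R141C at day 0. Their p-values rest on signals below background in the other 3 groups, and the pattern is one that the filter selects. These bounds are small because the wild-type signals themselves were faint, between -5.78 and -4.32. Aard, above background on all 4 arrays, had log2 signals of 1.17 and 1.31 in wild type and -0.28 and -0.45 in R141C (difference -1.61, SE 0.20, adjusted p = 0.240). Klhl4 had the largest lower difference after Cldn24 among the genes the naming rule gave, -3.69, with -3.01 and -0.98 against -5.27 and -6.10, and 1 of its 2 R141C arrays was above background.

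Among higher genes several of the smallest p-values again belonged to faint transcripts. Pisd-ps2, a pseudogene, had -3.997 and -4.004 in wild type and -2.43 and -2.60 in R141C (1.49, adjusted p = 0.240). As a pseudogene it can share signal with its parent gene. Fam163a had -5.44 and -5.53 against -3.07 and -2.80 (2.55, or 1.26 with normexp). Zhx2, a zinc finger and homeobox repressor, and Rin3, a Rab exchange factor, were above background in R141C and not in wild type. On the processed signal they were at least 1.45-fold and 1.81-fold higher. Irgm1, an immunity-related GTPase, was tight within each genotype, with 2.0062 and 2.0001 in wild type and 3.13 and 3.21 in R141C (1.17, SE 0.18). Alox15, a lipoxygenase, had -2.48 and -2.44 against -0.66 and -0.997 (1.63, SE 0.26). For both genes the groups were separate and the gap between replicates was at most 0.34. Both had an adjusted p of 0.539.

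Genes of the naive state were mostly lower in R141C. Of 25 tested genes 22 had a lower mean and 3 a higher one, with a median difference of -0.71 where all tested genes had 0.00. The groups did not overlap for 9 genes, all lower (background 14.3%), and 7 had an unadjusted p under 0.05, all lower (background 2.21%). No gene passed over all genes tested. The level of the whole list was 3.33 and 4.03 in wild type and 3.44 and 2.77 in R141C, as the median log2 signal per array. The highest array was wild-type replicate 2 and the lowest R141C replicate 2, while the other two cultures were alike.

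The same order of arrays was seen in many single genes of that list. Klf4, a factor that LIF maintains, had 3.10 and 5.07 in wild type and 2.96 and 2.79 in R141C, a difference of -1.21 (SE 0.59) that was -0.22 without wild-type replicate 2. Esrrb, an orphan nuclear receptor of the naive network, had 5.28 and 6.51 against 5.17 and 4.52 (-1.05, SE 0.44). Tbx3, a T-box factor of the same network, had 2.58 and 4.50 against 2.64 and 1.39, and its groups overlapped. In all 3, wild-type replicate 1 and R141C replicate 1 lay within 0.20 of each other. A smaller set separated the groups in both pairs of cultures. Jam2, a junction adhesion molecule, had 3.33 and 4.32 against 2.75 and 2.69 (-1.11, SE 0.37). Rex2, a zinc finger gene, had 3.15 and 3.57 against 2.50 and 2.77 (-0.73, SE 0.25). Tet2, a 5-methylcytosine oxidase, had 1.92 and 2.79 against 1.64 and 1.28 (-0.89, SE 0.31). Fgf4, the autocrine growth factor that drives exit from the naive state, had 5.04 and 4.81 against 4.50 and 3.34 (-1.001, SE 0.38). Zfp42, known as Rex1, had 6.14 and 6.11 against 6.21 and 5.09, low on R141C replicate 2 alone. Klf2 (5.11 and 5.14 against 5.33 and 4.56) had the same form. Tdh, a threonine dehydrogenase of the stem cell metabolism, was bright on every array, between 6.88 and 7.37.

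Dppa3, Spic and Slc5a5 were the 3 naive genes with a higher mean in R141C, and in all 3 wild-type replicate 2 was the lowest array. Dppa3, a maternal factor that protects methylation, had 3.02 and -0.59 in wild type and 2.71 and 2.46 in R141C. The list's median difference was -0.44 without wild-type replicate 2, -0.32 without R141C replicate 2, -0.94 without wild-type replicate 1 and -1.03 without R141C replicate 1. At day 6 the same genes had a median difference of 0.24 between the genotypes. The wild-type cells lost them by a median of -3.25 between the days.

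The core and general genes had a smaller median difference than the naive genes, but more of them did not overlap. The list of core and general pluripotency genes had a median difference of -0.35 over 24 genes, 21 lower and 3 higher. For 13 the groups did not overlap with R141C lower (background 14.3%) and for 1 with R141C higher (background 14.5%). An unadjusted p under 0.05 was reached by 4, all lower (background 2.21%). Pou5f1, the octamer factor at the centre of the network, had 5.67 and 4.99 in wild type and 5.93 and 5.55 in R141C, so its mean was higher by 0.41 (SE 0.43) and its groups overlapped. Sox2, its partner on DNA, had 3.12 and 3.88 against 2.96 and 2.37 (-0.83, SE 0.34). Nanog had 6.08 and 6.46 against 6.08 and 5.72 on its brightest probe (-0.37), and its other probes gave -0.62 and 0.47, so the probes disagreed in sign. Utf1 had 6.12 and 6.87 against 6.03 and 5.67. Tet1, an oxidase of methylated DNA, had 3.60 and 4.03 against 3.20 and 3.04 (-0.69, SE 0.21), and Jarid2, a partner of the Polycomb repressor, -0.81 (SE 0.30) as its difference. Both were lower in each R141C culture. Lin28a and Lin28b, blockers of let-7 maturation, had differences of 0.14 and 0.41. Without R141C replicate 1 the median of the list was -0.59.

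**Figure D2:**
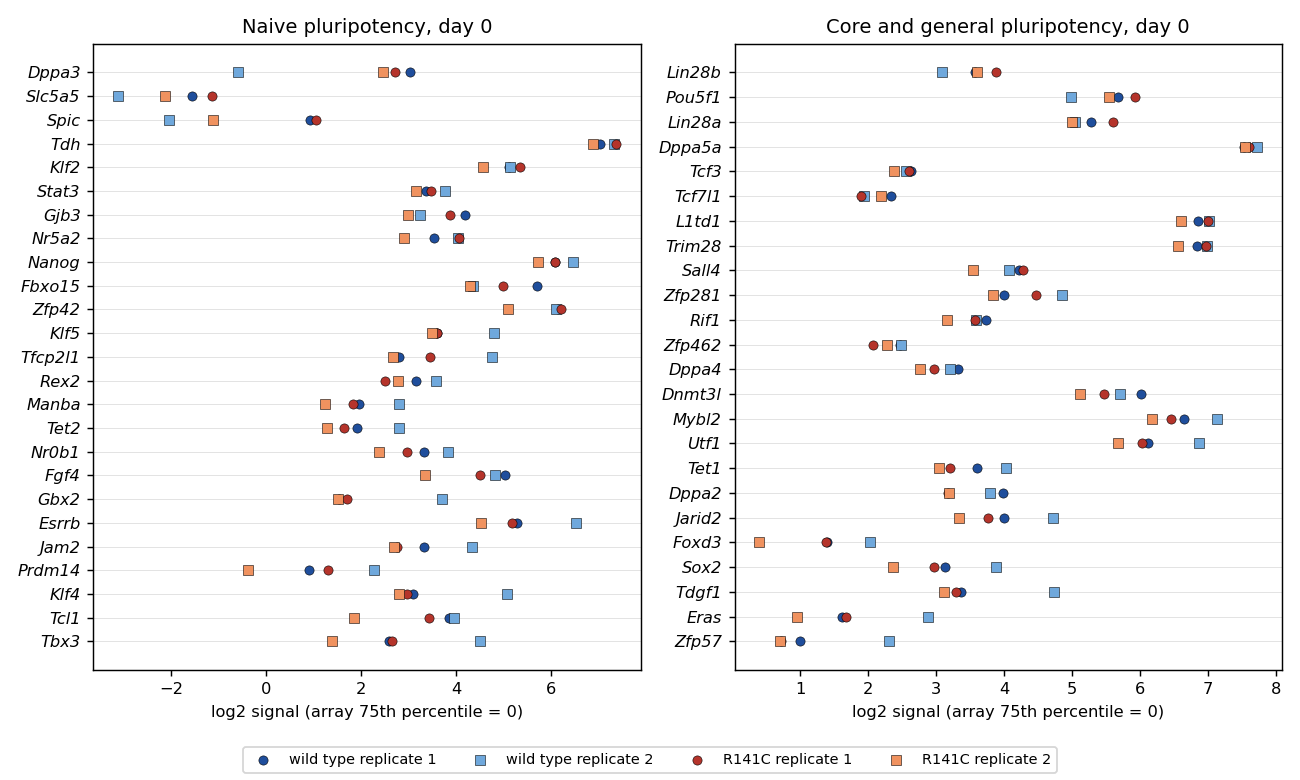
Log2 signal of every tested gene of the naive list (25 genes, left) and of the core and general pluripotency list (24 genes, right) on the 4 arrays of day 0, ordered by the genotype difference from most positive at the top. Each point is 1 array, and points that coincide cover each other. In the naive list wild-type replicate 2 is often the highest point and R141C replicate 2 the lowest, as for Tbx3 (4.50 and 1.39).

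The primed epiblast genes did not shift as a whole list, though some were higher in R141C. The primed epiblast list had a median difference of 0.03 over 20 genes, 11 higher and 9 lower. Fgf5, the standard marker of the primed state, had -0.42 and -0.13 in wild type and 0.75 and -1.20 in R141C, so its R141C replicates lay on either side of both wild-type arrays. Otx2, which drives the step to the primed state, had 3.43 and 2.89 against 3.40 and 1.34, low on R141C replicate 2. Dnmt3b, the de novo methyltransferase of the epiblast, was at 6.34 and 6.04 against 6.20 and 6.19. In this list 2 genes had an unadjusted p under 0.05, Krt18 (1.28) and Fzd2 (1.11), both higher in R141C (background 2.29%). Sox3 (0.62, SE 0.28) and Dusp6 (0.36, SE 0.21) were also higher without overlap. Pou3f1, Zic2 and Zic5 differed by -0.09, 0.22 and -0.07, and their groups overlapped.

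Genes of the primitive streak had the largest median difference of the 28 lists, with R141C higher. It was 1.14 over 22 tested genes, 18 higher and 4 lower, against 0.00 over all tested genes. The groups did not overlap with R141C higher for 14 of the 22 (background 14.5%) and lower for 1, and 10 had an unadjusted p under 0.05, all higher (background 2.29%). None passed over all genes tested, and the smallest adjusted p of the list was 0.655. The median signal of the list was -1.78 and -1.48 in wild type and -0.79 and 0.34 in R141C. Wnt3a, also on the list, was dim in every group and was not tested. In bulk samples fewer cells of a type and less RNA per cell cannot be told apart, here as in every result.

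Fgf8, a growth factor of the streak, had log2 signals of -1.72 and -0.98 in wild type and 1.12 and 1.48 in R141C (mm9 chromosome 19, 45811355 to 45811414). Both R141C cultures were above both wild-type ones by more than 2, a difference of 2.65 (SE 0.48), 6.27-fold. T, the T-box factor that defines the streak, had 0.40 and 0.97 against 2.56 and 3.63 (mm9 chromosome 17, 8635302 to 8635361), a difference of 2.41 (SE 0.55). Wnt3, the ligand that starts the streak, had 0.97 and -0.64 against 1.70 and 2.45 (1.91, SE 0.54). In all 3 the groups were separate and R141C replicate 2 was the highest array. Evx1, a homeobox factor of the posterior streak, had -0.33 and -3.06 against 0.99 and 0.36, with a gap between the wild-type replicates wider than its difference of 2.37. Eomes, a T-box factor of anterior streak and endoderm, had -1.10 and -0.79 against -0.28 and 0.32 (0.97, SE 0.31). Cyp26a1, which degrades retinoic acid, had -1.15 and -1.84 against -0.51 and 0.56 (1.52), and Wnt5b -0.40 and -0.11 against 0.84 and 1.46 (1.40). Mixl1, a homeobox factor of mesendoderm, had -6.15 and -5.63 against -5.05 and -2.80 and 1 of its 2 wild-type arrays was above background.

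The 4 members with a lower mean in R141C were Mesp1, Tbx6, Nodal and Mesp2. Mesp1, which opens the cardiac mesoderm programme, had -4.28 and -3.90 in wild type and -4.83 and -3.47 in R141C (-0.06, SE 0.46). Tbx6, of paraxial mesoderm, had -2.49 and -2.25 against -2.46 and -2.54 (-0.13). Mesp2 was lower on both R141C arrays (-0.92, SE 0.40). Nodal, a ligand that induces the streak, had 4.21 and 3.96 against 3.61 and 4.205 (-0.18). Without R141C replicate 2 the median of the list was 0.66, without R141C replicate 1 it was 1.54, and with normexp it was 0.68. At day 6 the genotypes had a median difference of 0.00 over the same genes.

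Targets of Wnt signalling through beta-catenin were higher with the streak genes, 3 of which (T, Fgf8 and Sp5) stand on both lists. Of 21 genes 17 had a higher mean in R141C, with a median difference of 0.49. The groups did not overlap for 12 with R141C higher (background 14.5%) and for 1, Myc, with R141C lower. An unadjusted p under 0.05 was reached by 9, all higher (background 2.29%). Dkk1, a secreted antagonist induced by the pathway, had -3.56 and -4.62 in wild type and -1.24 and -2.07 in R141C (2.44, SE 0.41, mm9 chromosome 19, 30621424 to 30621483). Axin2, the feedback inhibitor most used as a readout of the pathway, had -0.81 and -1.09 against 0.16 and 1.14 (1.60, SE 0.33, 3.03-fold). Sp5, a zinc finger target, had 2.73 and 2.17 against 3.98 and 5.03 (2.05, SE 0.54, mm9 chromosome 2, 70315688 to 70315747). In each of the 3 both R141C arrays were above both wild-type ones. Chosen after their values were seen, Rnf43, a ligase that removes Wnt receptors, had -1.07 and -1.48 against -0.55 and 0.07, Tnfrsf19 had 0.66 and 1.05 against 1.28 and 2.27, and Nkd1 -1.47 and -1.38 against -1.10 and -0.14. Other members did not move with these. Ccnd1, a cyclin, had a difference of 0.00, Notum -0.12, Tcf7 0.14 and Cdx1 -0.22. Without R141C replicate 2 the median of the list was 0.33, and without wild-type replicate 2 it was 0.83.

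The upstream sequence of these genes was read because they are described as one transcriptional response. The core motif CTTTGA of the TCF and LEF factors, which carry beta-catenin to DNA, was searched on both strands (its reverse complement is TCAAAG) in the 250 bases before each RefSeq start (build GRCm38.p6). Of the 21 tested genes 12 had an entry. The motif was found in 6 of them, against 13.8% of the 13830 tested genes with an entry. The list was drawn up from described targets of the pathway, so a share above that of all genes follows from its choice. It is not a result of these cultures. All 6 were among the 9 genes with an entry whose groups did not overlap with R141C higher. Since those 9 are most of the 12, this says little about the genotype difference. A gene with several starts had more chances, and a match is a description of letters, not a site. Sequences of 4 of the 6 are shown 5′ to 3′ on the gene's strand, with the motif in capitals on either strand, because they are the members whose values are given above. They are Sp5 (chr2:70474673-70474922, plus strand), Dkk1 (chr19:30549497-30549746, minus strand), T (chr17:8434173-8434422, plus strand) and Tnfrsf19 (chr14:61037988-61038237, minus strand).
Sp5: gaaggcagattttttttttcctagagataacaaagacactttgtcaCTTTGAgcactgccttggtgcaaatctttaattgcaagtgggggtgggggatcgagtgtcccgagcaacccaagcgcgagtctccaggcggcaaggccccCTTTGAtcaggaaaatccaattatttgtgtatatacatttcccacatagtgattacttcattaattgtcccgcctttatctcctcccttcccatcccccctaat
Dkk1: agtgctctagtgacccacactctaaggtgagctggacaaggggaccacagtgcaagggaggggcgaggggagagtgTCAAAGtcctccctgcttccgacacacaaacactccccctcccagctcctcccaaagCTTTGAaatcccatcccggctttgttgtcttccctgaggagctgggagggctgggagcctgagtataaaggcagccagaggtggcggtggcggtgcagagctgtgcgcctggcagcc
T: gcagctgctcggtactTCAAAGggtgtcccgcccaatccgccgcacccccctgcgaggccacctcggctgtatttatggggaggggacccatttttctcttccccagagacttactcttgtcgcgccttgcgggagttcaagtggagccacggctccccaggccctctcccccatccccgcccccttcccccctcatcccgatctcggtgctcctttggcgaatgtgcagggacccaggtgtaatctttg
Tnfrsf19: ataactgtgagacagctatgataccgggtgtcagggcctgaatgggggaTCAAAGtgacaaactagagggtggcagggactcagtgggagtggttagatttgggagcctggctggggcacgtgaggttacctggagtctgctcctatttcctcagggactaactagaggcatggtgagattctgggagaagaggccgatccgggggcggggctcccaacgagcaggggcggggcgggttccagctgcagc
Sp5 and Dkk1 held 2 matches each, and T and Tnfrsf19 held 1. Another start of Tnfrsf19, not shown, held 0. Counted from the start, the first base of the matches lay at -204 and -104 in Sp5, at -174 and -117 in Dkk1, at -234 in T and at -201 in Tnfrsf19. Axin2, Rnf43 and Nkd1, with R141C higher on both arrays, held no match in this window.

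**Figure D3:**
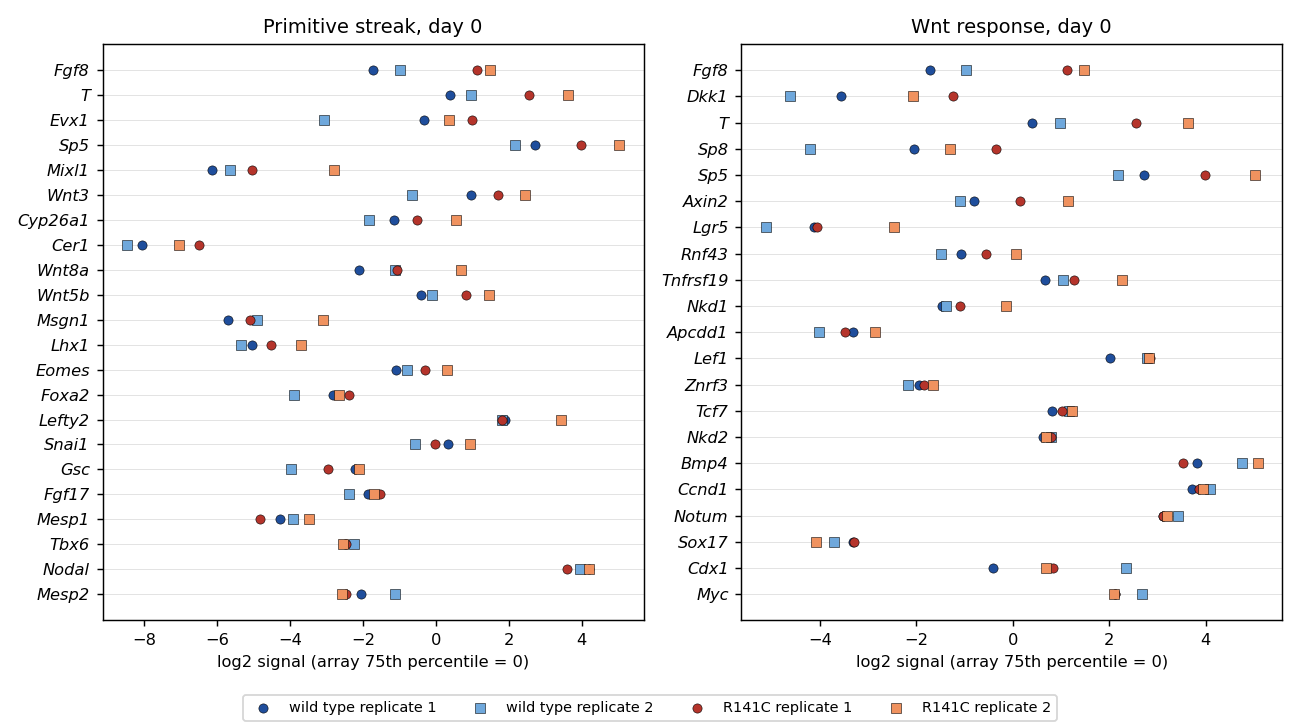
Log2 signal of every tested gene of the primitive streak list (22 genes, left) and the Wnt response list (21 genes, right) on the 4 arrays of day 0, ordered by the genotype difference from most positive at the top. Each point is 1 array, and points that coincide cover each other. For T both R141C arrays (2.56 and 3.63) lie to the right of both wild-type arrays (0.40 and 0.97), while Nodal, near the bottom, overlaps.

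Caudal and Hox genes, which set position along the body axis, were also mostly higher in R141C, at low signals. Of 40 tested genes 34 had a higher mean, with a median difference of 0.86. The groups did not overlap for 17 with R141C higher (background 14.5%) and 4 with R141C lower (background 14.3%). An unadjusted p under 0.05 was reached by 12, all higher (background 2.29%). The median signal was -4.53 and -5.44 in wild type and -3.39 and -4.02 in R141C, and 23 of the 40 were above background on all 4 arrays. By cluster, all 10 tested Hoxb genes were higher (median 1.40), all 8 Hoxd genes (median 0.70), 7 of 10 Hoxa genes (median 0.94) and 7 of 9 Hoxc genes (median 0.42). In this list R141C replicate 1 was above R141C replicate 2 for 32 of 40 genes, where over all tested genes it was so for 16640 of 25892. In the streak list it was so for 6 of 22, so the array with the higher values was not the same.

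Cdx2, a caudal factor that acts upstream of Hox genes and also marks trophoblast, had log2 signals of -0.65 and -2.22 in wild type and 1.76 and 0.48 in R141C (2.56, SE 0.60, mm9 chromosome 5, 148112547 to 148112606). Hoxb1, an early 3′ gene of its cluster, was above background on both R141C arrays (-3.27 and -3.44) and on neither wild-type array (-5.95 and -7.18). On the processed signal it was at least 7.15-fold higher (mm9 chromosome 11, 96228450 to 96228510, limma, adjusted p = 0.539). Its difference of 3.21 was 1.24 at the lowest among the other settings. Its neighbour Hoxb2 was above background throughout, with -4.46 and -5.69 against -2.18 and -3.13 (2.42, SE 0.50). Hoxb3 had -4.22 and -5.91 against -2.06 and -3.85, and Hoxa3 -4.33 and -5.20 against -2.22 and -3.19. For all of these both R141C arrays were above both wild-type arrays. In the Hoxd cluster Hoxd8 (2.83), Hoxd9 (3.24) and Hoxd4 (3.39) had differences close to that of Hoxb1. Only 1 wild-type array of each was above background, so their folds are imprecise.

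Further members were higher on both R141C arrays without overlap, among them Hoxc9 (2.45, SE 0.90), Hoxb8 (2.10, SE 0.92), Hoxc6 (1.64, SE 0.56) and Hoxb13 (0.65, SE 0.78). Others did not separate the genotypes or were lower. Hoxb4, which stem cells express at a low level, had -1.51 and -3.77 against -1.85 and -0.45, and its groups overlapped. Hoxa9 (0.03), Hoxc8 (0.04), Hoxa4 (-0.10) and Hoxc11 (0.13) had almost no difference. Hoxa6 (-1.56), Hoxc13 (-0.71), Hoxc12 (-0.31) and Hoxa13 (-0.47) were lower on both R141C arrays, Hoxa13 below background on all 4. Cdx1 had -0.40 and 2.35 against 0.82 and 0.69, with the wild-type replicates on either side. Evx1os, an antisense transcript at the end of the Hoxa cluster, was at least 2.27-fold higher in R141C on the processed signal. Whether its probe also reads Evx1 was not tested. The median of the list was 1.49 without R141C replicate 2, 0.35 without R141C replicate 1 and 0.35 with normexp. At day 6 it was 1.49.

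**Figure D4:**
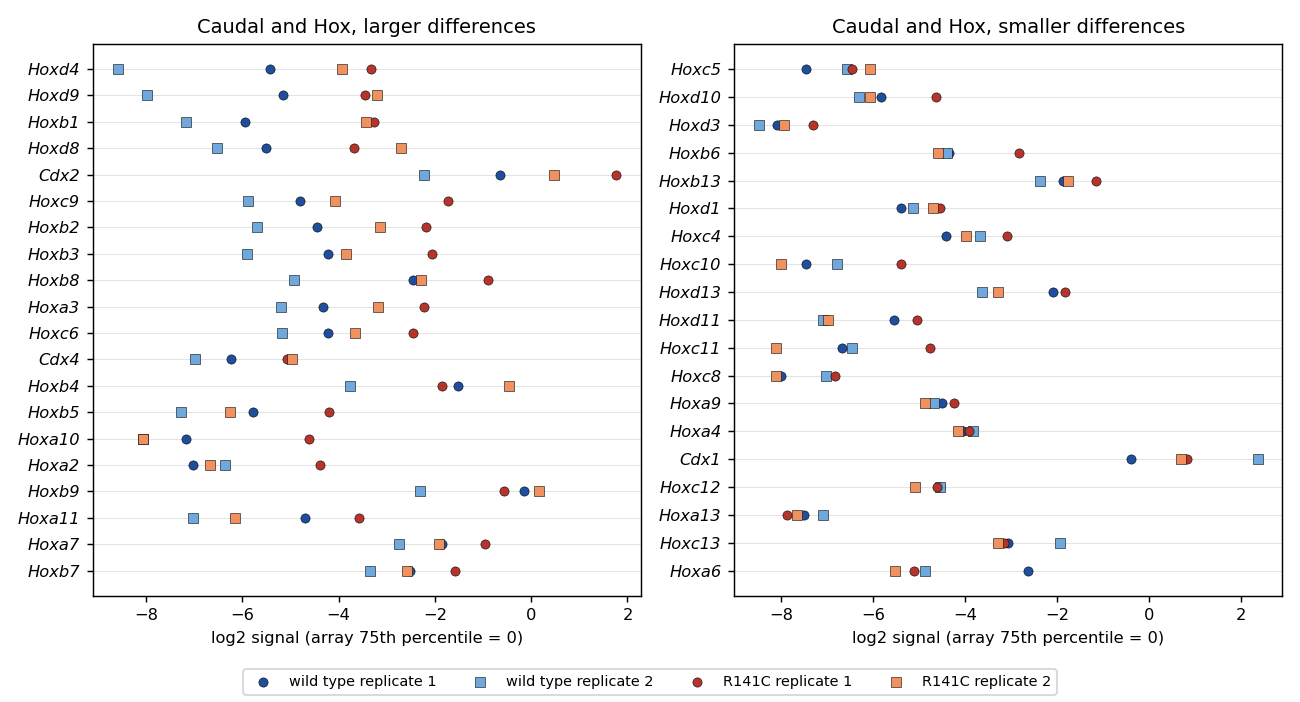
Log2 signal on the 4 arrays of day 0 for 39 of the 40 tested caudal and Hox genes, ordered by the genotype difference, with the larger differences on the left. Each point is 1 array, and points that coincide cover each other. In the upper rows on the left both R141C arrays lie to the right of both wild-type arrays, as for Hoxb2 (-2.18 and -3.13 against -4.46 and -5.69), and most signals are far below the 75th percentile of the array.

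The signalling pathways that hold or break the undifferentiated state showed single genes rather than a shift. The LIF list had a median difference of -0.19 over 18 genes, with 4 non-overlapping genes higher and 3 lower. Lifr, a chain of the LIF receptor, had 2.03 and 2.93 in wild type and 1.76 and 1.40 in R141C (-0.90, SE 0.32). Jak2, a kinase of the cytokine receptors, had 0.10 and -0.28 against 0.44 and 1.37 (0.99, SE 0.35). Stat3, the factor that LIF activates, had 3.37 and 3.76 against 3.47 and 3.16 and overlapped. Socs3, its direct target, had 4.19 and 5.55 against 4.25 and 4.11 (-0.69, SE 0.42), high on wild-type replicate 2.

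The FGF list had a median of -0.12 over 23 genes. Fgf15 (-1.57, SE 0.38), Fgfr4 (-1.20, SE 0.44) and Fgf4 were lower and Fgf8 was higher, without overlap. Of the feedback genes and targets of the pathway, Spry2 (-0.19), Etv5 (-0.14) and Spry4 (-0.77) overlapped. The phosphatases Dusp4 and Dusp6 were higher without overlap, Dusp4 with 2.60 and 1.23 against 2.88 and 2.94 (0.9997, SE 0.52) and Dusp6 by 0.36. The Nodal list had a median of 0.06 over 19 genes. Fst, the activin antagonist, had 1.39 and 1.07 against 1.89 and 3.02 (1.22, SE 0.40). Lefty1 and Lefty2, the feedback inhibitors, had differences of 0.80 and 0.77 that came from R141C replicate 2. The BMP list had a median of 0.17 over 19 genes, and Id1 had 4.33 and 3.11 against 4.29 and 3.60.

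Markers of other cell types that such cultures could hold were measured beside these lists. Feeder fibroblast and matrix genes had a higher R141C mean in 25 of 27 cases, with a median difference of 0.65, but 6 did not overlap and 2 had an unadjusted p under 0.05. Their summed linear signal, in units of the array's 75th percentile, was 396 and 194 in wild type and 346 and 774 in R141C. R141C replicate 2 was the highest and wild-type replicate 2 the lowest, so the genotypes overlapped. Col1a1, a fibrillar collagen, had log2 signals of 3.81 and 1.94 against 2.28 and 4.77, and Acta2, smooth muscle actin, 5.18 and 3.17 against 4.14 and 6.76. The defining markers Col1a1, Col1a2, Col3a1, Dcn, Postn, Thy1 and Pdgfrb were above background on all 4 arrays, Lum on 3, and Fap and Lox were dim in every group and not tested. R141C replicate 2 also had the highest streak genes and the lowest naive genes of the 4 arrays. Beside these sums, the median signal of the streak list was -1.78 and -1.48 in wild type and -0.79 and 0.34 in R141C. The median of the fibroblast list was 1.38 without wild-type replicate 1, 0.29 without wild-type replicate 2, 1.26 without R141C replicate 1 and 0.13 without R141C replicate 2. The part of such cells in the other differences was not tested.

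Epithelial and trophoblast genes had a similar arrangement. The trophoblast list had a median difference of 0.49 over 22 genes, 16 higher, 7 non-overlapping and all of those higher. Krt8 and Krt18, the paired keratins of simple epithelium, had differences above 1. Krt8 had 7.22 and 5.99 in wild type and 7.60 and 8.003 in R141C (1.20, SE 0.41), and Krt18 had 7.44 and 6.09 against 7.93 and 8.16 (1.28, SE 0.42). For both, wild-type replicate 2 was the low array and wild-type replicate 1 lay closer to the R141C arrays than to it. The defining trophoblast factors did not share 1 pattern. Cdx2, described above, had the largest difference of the list (2.56, SE 0.60) and its groups did not overlap. Eomes, also on the list, was higher without overlap (0.97, SE 0.31). Elf5 was faint (-4.22 and -7.37 against -5.46 and -5.33), Tpbpa was dim in every group, and Gata3 had 0.66 and -2.83 against 1.08 and -0.43. Without wild-type replicate 2 the median of the list was -0.16, and without wild-type replicate 1 it was 1.36. In the epithelial and mesenchymal list 19 of 23 genes were higher (median 0.56). Cdh1, E-cadherin, differed by 0.31 and Epcam by -0.27, while Zeb2, a repressor of E-cadherin, had -1.40 and -2.15 against -1.22 and 0.11 (1.22, SE 0.53).

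Endoderm, neural and blood markers showed no common direction. The primitive and visceral endoderm list had a median of 0.35 over 29 genes, 17 higher and 12 lower. Cited1, a coactivator of early endoderm and trophoblast, had 3.89 and 1.88 against 4.77 and 4.76 (1.88, SE 0.61), and Lama1, a laminin chain, 3.61 and 3.71 against 2.82 and 3.08 (-0.71, SE 0.27). Gata4, Gata6 and Sox17, the defining factors, were faint, between -4.08 and -2.42 on every array, and overlapped. Ttr, a marker of visceral endoderm, was not above background on any array. Over 20 neuroectoderm genes the median was 0.08, with Elavl3 (-1.39, SE 0.38) and Neurod1 (-1.20, SE 0.31) lower and Pax3 (1.30, SE 0.40) higher without overlap. The blood and endothelium list had a median of -0.08 over 23 genes, and its summed signal was 20.0 and 19.3 in wild type and 19.9 and 19.3 in R141C.

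The heart lists were measured because of the gene that the lines differ in. Early mesoderm and cardiac factors had a median of 0.33 over 29 genes, 23 higher and 6 lower. Of these, 4 and 3 did not overlap, no more than the background of 14.5% and 14.3%. Nkx2-5 itself had the largest difference of the list. Tbx2 (1.43, SE 0.49) and Six2 (1.27, SE 0.51) were higher and Meox1 (-1.38, SE 0.53) lower. Gata4, Isl1 and Hand2, which act with Nkx2-5 in progenitors, had differences of 0.19, 0.17 and 0.32 and overlapped. Tbx5 and Mef2c were dim on all 4 arrays. Cardiac muscle genes had a median of 0.29 over 26 genes and none at an unadjusted p under 0.05. The SEs and p-values include the spread of the day 6 arrays. The lack of small p-values therefore does not show that the cultures of day 0 were alike in these genes. Actc1, cardiac actin, had 1.48 and 1.04 in wild type and 1.81 and 4.62 in R141C, so 1 culture carried the difference. Its adjusted p, like that of every gene of both lists, was 0.9995 or above.

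Interferon-induced genes were higher in R141C in a subset. Of 26 tested genes 19 had a higher mean, with a median difference of 0.43. The groups did not overlap for 11 with R141C higher (background 14.5%) and 1 with R141C lower. An unadjusted p under 0.05 was reached by 7, all higher (background 2.29%). Isg15, a ubiquitin-like modifier, had 1.24 and 1.47 in wild type and 2.57 and 3.34 in R141C (1.60, SE 0.54, 3.03-fold). Gbp2, a guanylate-binding protein, had 2.99 and 3.17 against 4.15 and 4.47 (1.23, SE 0.32). Ifih1, a sensor of double-stranded RNA, had -2.25 and -2.53 against -1.14 and -0.37 (1.64, SE 0.44), and Mx2, an antiviral GTPase, -5.18 and -4.67 against -3.75 and -2.59 (1.75, SE 0.48). In these 4 the wild-type replicates lay within 0.51 of each other and below both R141C arrays. The other members ran both ways. Oas2, an oligoadenylate synthetase, had -0.73 and 0.49 against -0.56 and -1.96 (-1.14, SE 0.62) and overlapped. Rsad2, the member without overlap and lower, was dim on all 4 arrays, as was Irf7. Chosen after their values were seen, Stat2 differed by 0.17, Oas1b by -0.05 and Ifitm3 by -0.25, and all 3 overlapped. The median was 0.72 without wild-type replicate 1 and 0.96 with the filter on all 8 arrays. Leaving out another array gave a median below 0.43, and the range is given in the last section. At day 6 the median of the list was 1.27.

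Imprinted genes, which are read from 1 parental copy, were higher in R141C in part and split the replicates in part. The list had a median difference of 0.26 over 27 genes, of which 19 had a higher mean. Without overlap between the genotypes, 9 were higher in R141C (background 14.5%) and 2 lower (background 14.3%). An unadjusted p under 0.05 was reached by 3, all higher (background 2.29%). H19, a noncoding RNA, had 4.12 and 3.34 in wild type and 5.69 and 4.69 in R141C (1.46, SE 0.53). Sgce had 0.85 and 0.59 against 1.34 and 1.36 (0.63, SE 0.21) and Usp29 -4.61 and -4.92 against -4.09 and -4.01 (0.72, SE 0.21). Other members, chosen after their values were seen, split each genotype. Grb10, a growth-limiting adaptor, had 0.75 and -2.56 against -2.69 and 1.90. Igf2, a growth factor, had -1.90 and -3.95 against -4.23 and -1.60, and Cdkn1c, a cyclin kinase inhibitor, 3.75 and 1.93 against 1.08 and 3.76. In all 3 wild-type replicate 1 and R141C replicate 2 were the high arrays. Meg3, a noncoding RNA of the Dlk1 domain, ran the other way, with 3.61 and 5.29 against 5.24 and 4.19.

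Genes of the two-cell-like state, a rare and passing condition of stem cells, split the replicates most. The list had a median gap of 4.79 between wild-type replicates 1 and 2, against 0.01 over all tested genes, and of -1.67 between the R141C replicates. Zscan4f, among the 2 members with the highest signal, had 4.98 and 0.15 in wild type and 0.94 and 3.24 in R141C. Tcstv3 had 0.85 and -4.86 against -2.89 and -1.98. The 16 tested genes had a median difference of -0.40 between the genotypes, 15 of 16 were lower on the mean, and in none were the groups separate. The median was 1.91 without wild-type replicate 1 and -2.85 without wild-type replicate 2, so the direction turned with the array left out. Members of the Zscan4, Usp17l and Tcstv families are near-identical copies whose probes can share signal, so they are not separate measurements. Arg2 and Zfp352, single genes of the list, had -1.74 and -4.45 against -3.69 and -3.26, and 2.53 and 2.98 against 2.99 and 2.39.

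**Figure D5:**
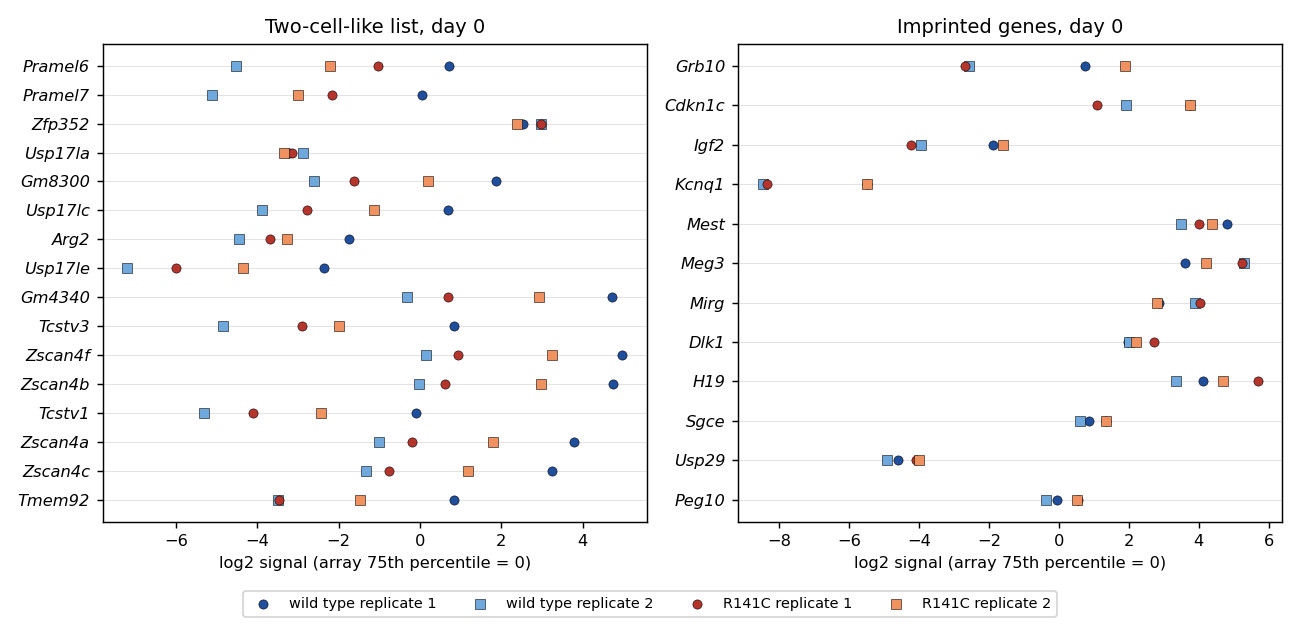
Log2 signal on the 4 arrays of day 0 of the 16 tested genes of the two-cell-like list (left) and of 12 imprinted genes (right). The 12 are a selection from the 27 tested imprinted genes and do not stand for the whole list. Each point is 1 array, and points that coincide cover each other. Wild-type replicate 1 is the right-most point for most of the left panel (Zscan4f 4.98 against 0.15 in replicate 2), and Grb10, Cdkn1c and Igf2 pair wild-type replicate 1 with R141C replicate 2.

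Wide replicate gaps also showed in single genes, of which Inhbb is on the Nodal list and the others on none. In wild type, Hal, histidine ammonia-lyase, had -2.50 and 2.22, and Inhbb, an activin subunit, 0.30 and 4.05, both high on replicate 2 alone, while R141C had -1.53 and -3.36 for Hal and 0.37 and -1.21 for Inhbb. Hes3, a Notch target, had -0.54 and -6.08 in wild type. In R141C, Pou4f2, a POU factor, had 1.56 and -2.09, and Scel, an epithelial protein, -5.84 and -1.12. None of these separated the genotypes.

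Germ cell genes were lower in R141C for 16 of 21, with a median of -0.28. Without overlap, 6 were lower (background 14.3%) and 1 higher (background 14.5%). Mael, of the piRNA pathway, had 1.62 and 2.05 in wild type and 0.90 and 0.88 in R141C (-0.94, SE 0.23), Dazl -1.70 and -2.57 against -3.02 and -3.29 (-1.02, SE 0.37) and Piwil2 -1.69 and -0.67 against -2.08 and -2.74 (-1.23, SE 0.47). In all 3 both R141C arrays were below both wild-type arrays. Ddx4, the standard germ cell helicase, had 1.45 and 1.19 against 0.99 and 1.01 (-0.32, SE 0.35). The list of DNA methylation genes had a median of -0.09 over 18 genes, with the oxidases Tet1 and Tet2 and the imprint protector Zfp57 (-0.93, SE 0.42) lower, and Dnmt1 (-0.34), Dnmt3a (-0.01) and Uhrf1 (0.06) overlapping.

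Housekeeping programmes were close between the lines. The oxidative phosphorylation list had a median of 0.03 over 35 genes and a range of -0.36 to 0.34. The glycolysis and hypoxia list had a median of -0.03 over 28 genes, with Slc2a3, a glucose transporter, higher (6.22 and 6.19 against 6.79 and 7.28) and Pfkp, a phosphofructokinase, lower (1.85 and 2.83 against 1.45 and 1.17). Cell cycle genes had a median of -0.12 over 29 genes and none at an unadjusted p under 0.05. Mki67, the proliferation antigen, had 4.41 and 4.83 against 4.54 and 4.45. Immediate early and stress genes had a median of 0.16 over 25 genes. Atf3, a stress-induced factor, had 0.84 and 0.22 against 1.78 and 1.98 (1.35, SE 0.30), and Chac1, of the amino acid response, 0.09 and 3.24 against -0.13 and -0.29, high on wild-type replicate 2 alone.

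Gene position was also compared, since cultured stem cells can gain or lose chromosomes. Among genes above background, chromosome 19 had a median difference of 0.16, with R141C higher for 532 of 739 genes (72.0%), and chromosome 11 one of 0.11, with 66.2% higher. The other autosomes and the X had medians between -0.06 and 0.05. Chromosome 19 was higher by 0.39 in R141C replicate 1 and by -0.07 in R141C replicate 2, each against the wild-type mean, so 1 culture carried it at day 0. At day 6 the median difference of chromosome 19 was 0.22, where all tested genes had 0.07. The median of chromosome 11 was 0.03 without wild-type replicate 2 and also without R141C replicate 1. Chromosome 8 had a median gap of 0.42 between the R141C replicates and 0.24 between the wild-type replicates, and chromosome 1 of 0.35 and -0.24, while the median gaps over all tested genes were 0.15 and 0.01. Fgf8 and Dkk1 lie on chromosome 19 and had differences of 2.65 and 2.44, far above its median. Copy number was not measured.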

How the data were processed

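Per the file headers, the scanner files came from Agilent Feature Extraction 11.5.1.1, with probes placed on mm9, while the submitters' processing notes give 10.5.1.1. The deposited processed signal is a linear intensity, background-subtracted and detrended within each array. The deposited mean and background intensity columns served only for normexp, and the deposited spot flags (other) are 0 or 1. The series matrix, deposited as log2 values, covers 36388 probes, with column medians of 8.99 to 9.04 and a correlation of at least 0.9995 with the processed signal. Its scaling is not given in the sources used here.

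Controls, outlier spots (131 to 251 per array) and 98 probes lacking a usable spot on an array were left out, and 0 spots were saturated. Spots of a probe were averaged, and each array's 75th percentile (1299 to 1848 at day 0) was subtracted on the log2 scale. A RefSeq table updated 2061 probe names. The probe with the highest mean over 8 arrays stood for its gene, and 25892 of 34735 names (74.5%) were tested, those whose probe was well above background in both cultures of 1 or more groups. Precision is limited by the number of arrays.

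The test was that of limma 3.58.1 (R 4.3.3, with data.table in version 1.17.8) on 4 group means fitted to 8 arrays, two-sided, with 4 residual and 2.70 prior degrees of freedom, Benjamini-Hochberg adjustment over 25892 genes and a call at an adjusted p under 0.05. A lower bound (at least N-fold) sets the mean of the bright group against the other group. A signal of that other group below the lowest among probes well above background was raised to that value. The bound holds for the processed signal, and other settings gave smaller differences for some of these genes. The script was tested on simulated data. Figures used Python 3.11.15, pandas 2.3.3, numpy 2.4.6 and matplotlib 3.10.9.

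The comparison and the 28 lists (700 entries, 637 genes) were chosen with earlier results of these data known. The rule named Nkx2-5 and Kif5b. Among genes with a symbol and without overlap it named the 10 with the smallest p and the 10 with the largest difference (unadjusted p under 0.05) each way. From each list it named up to 4 genes by p and 2 by signal, and it allowed any member of the pluripotency, primed, streak and Hox lists and the 5 largest replicate gaps each way. Other list members were picked with their values known. For some genes on these lists or given by this rule, no result is reported here.

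Other settings tried were normexp with an offset of 50, a median shift, quantile normalization, the series matrix values, 3 other filters on dim probes, trend and robust settings, only the 4 arrays of day 0, a mean over probes, a block on the replicate number, and the removal of each array. A crossed block was chosen after the data had been seen. Groups share replicate numbers, and the deviations of same-numbered arrays correlated at -0.136 between the genotypes at day 0, 0.07 at day 6, 0.00 between the days in wild type and 0.339 between the days in R141C. Not every pair was above 0.1, so no pairing was used.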

Additional observations from a re-analysis of the deposited data

How the results depend on the processing

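The count of called genes, 0, was 1 with normexp and 1 with the filter on all 8 arrays, Kif5b in both, with differences of -2.49 and -2.76. With only the 4 arrays of day 0 no gene was called (limma, smallest adjusted p = 0.728), with 445 genes higher and 460 lower at an unadjusted p under 0.05. With the replicate block 0 genes were called (smallest adjusted p = 0.696), with 535 genes higher and 537 lower at an unadjusted p under 0.05. Same-numbered arrays correlated at r = 0.339 between the days in R141C and at 0.07 or less in the other 3 pairs of groups. With numbers crossed there were 919 higher and 785 lower, and none called. Leaving out 1 array gave 333 to 1463 genes higher at an unadjusted p under 0.05 and 286 to 1363 lower, with the highest counts without wild-type replicate 1 at day 0 (1463 and 1363), 1044 and 953 without R141C replicate 1, 333 and 523 without wild-type replicate 2, and 368 and 286 without R141C replicate 2. The split of 594 to 571 was 573 to 419 with the filter on all 8 arrays, 624 to 537 with a median shift and 728 to 765 with no filter. Median differences of lists under leaving out 1 array ran from 0.13 to 1.38 for fibroblast genes, 0.35 to 0.72 for interferon genes, -0.16 to 1.36 for trophoblast genes, -2.85 to 1.91 for the two-cell-like list, -0.59 to -0.29 for core pluripotency and 0.35 to 1.49 for caudal and Hox genes, and from -0.07 to 0.39 for chromosome 19. The interferon median was 0.96 with the filter on all 8 arrays, where fewer genes were tested. The other causes were not tested. The medians of the naive, streak and Hox lists kept their sign in every alternative run. Faint signals limit most Hox genes: 17 of 40 were not above background on all 4 arrays.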
